A study of Danio rerio with 2 samples.

Results

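Chromosomes 3 and 12 of the zebrafish carry the 2 hoxb gene clusters, and their accessible chromatin was compared between 2 melanoma cell lines, zcrest 2 and zcrest 1. The members were the ATAC-seq regions called on either chromosome, with the exception of those whose summit lay in 3 stretches. These were 1 Mb centred on 47.5 Mb and 1 Mb centred on 51 Mb of chromosome 3, and 0.5 Mb centred on 15.5 Mb of chromosome 12. They numbered 4178 of 53132 regions in zcrest 2 (7.86%) and 4271 of 63335 in zcrest 1 (6.74%). Chromosome 3 contributed 1851 regions in zcrest 2 and 2477 in zcrest 1. Chromosome 12 contributed 2327 in zcrest 2 and 1794 in zcrest 1. Both lines carried p53 and BRAF alterations, a further element abbreviated Na in the labels and not expanded here, the reporter crestin:EGFP and MiniCoopR alone, and both were past passage 20. The crestin promoter is active in neural crest cells, which give rise to pigment cells, and MiniCoopR is a construct that rescues melanocytes with mitfa. No untreated or non-tumour group was analysed here. There was 1 library of 50000 cells per line, so every value compares 2 libraries, no test between the lines was possible, and what holds for these cultures need not hold for other melanomas. Positions are in the build Zv9.

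In ATAC-seq a transposase inserts sequencing adapters into DNA that is not wrapped tightly in nucleosomes, so that promoters and enhancers in use appear as peaks of reads. An ancestor of the teleost fishes doubled its whole genome, and many zebrafish chromosomes therefore still have a partner that descends from the same ancestral chromosome. Hox genes encode homeodomain transcription factors that set position along the body axis, and they lie in clusters in the order in which they are used. The duplication left a hoxba cluster on chromosome 3 and a hoxbb cluster on chromosome 12. In the RefSeq gene table of the later assembly GRCz12tu, the chromosome 3 cluster held 11 hoxb genes without another protein-coding gene among them (hoxb13a, hoxb10a, hoxb9a, hoxb8a, hoxb7a, hoxb6a, hoxb5a, hoxb4a, hoxb3a, hoxb2a and hoxb1a). Its neighbours were eve1, an even-skipped homeobox gene, on the hoxb13a side and cbx1a, a heterochromatin protein 1 gene, on the hoxb1a side. The chromosome 12 cluster had kept 4 genes, hoxb8b, hoxb6b, hoxb5b and hoxb1b, flanked by ttll6 and skap1. That table is in another build, so none of the regions below was assigned to a gene, the clusters were not placed among the windows, and no region sequence is shown.

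The lists differed in background, which bears on every comparison. The lowest background the peak caller allowed, which grows with the number of reads used, was 2.01 reads in zcrest 2 and 1.57 in zcrest 1. Over the 25 numbered chromosomes the summits had a median of 19 overlapping reads in zcrest 2 and 18 in zcrest 1. The deposited -log10 q of a region ranks regions within its own list and is not equally strict in both.

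The balance of the lines was opposite on the 2 chromosomes. On chromosome 3, 30.2 regions per Mb were called in zcrest 2 and 40.4 per Mb in zcrest 1, over 61.2 Mb (the distance between the outermost regions less the left-out stretches). On chromosome 12, 46.4 per Mb were called in zcrest 2 and 35.8 per Mb in zcrest 1, over 50.2 Mb counted the same way. Over all numbered chromosomes the densities were 39.2 per Mb in zcrest 2 and 46.7 in zcrest 1. The number of regions in zcrest 2 was 0.747 times that in zcrest 1 on chromosome 3 and 1.30 times on chromosome 12, against 0.839 times over all numbered chromosomes. Among the 25 chromosomes, the ratio of chromosome 3 was the 19th from the top and that of chromosome 12 was the highest.

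In windows of 2 Mb, counted from the chromosome start, the density on chromosome 3 ran in zcrest 2 from 20 regions per Mb at 32 to 34 Mb up to 50 at 0 to 2 Mb, with a median of 28.3. In zcrest 1 it ran from 21 at 20 to 22 Mb up to 62 at 48 to 50 Mb, with a median of 41.3. The windows of highest density thus lay far apart. On chromosome 12 the density was lowest at 12 to 14 Mb in both lines, with 28.5 regions per Mb in zcrest 2 and 26 in zcrest 1. It was highest at 48 to 50 Mb in zcrest 2 (66.5) and in the last, incomplete window at 50 to 52 Mb in zcrest 1 (58.2, over 0.687 Mb). As a description across windows, which share the libraries and the thresholds, the Spearman rho between the densities of the lines was 0.38 over the 32 windows of chromosome 3 and 0.70 over the 26 windows of chromosome 12. Over the 692 windows of all numbered chromosomes it was 0.49.

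**Figure D1:**
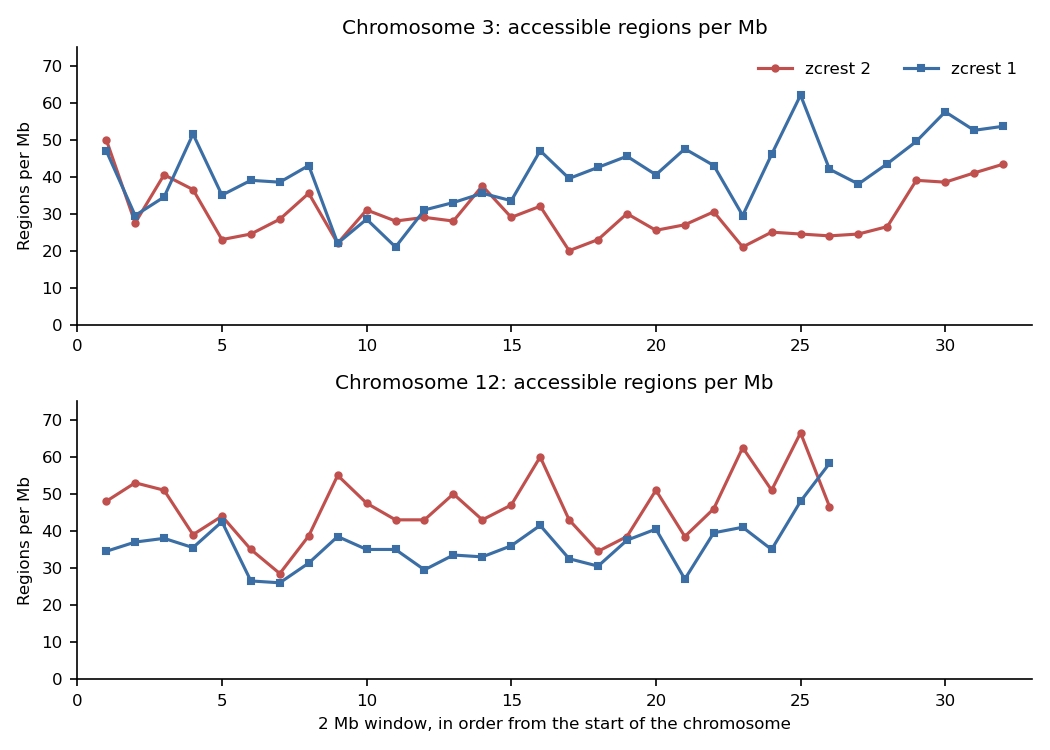
Accessible regions per Mb in 2 Mb windows of chromosome 3 (top) and chromosome 12 (bottom), with windows in order from the chromosome start on the x axis. Circles are zcrest 2 and squares zcrest 1, 1 library each, without error bars. On chromosome 3 zcrest 2 lies below zcrest 1 along most of the chromosome, and on chromosome 12 it lies above zcrest 1 in all windows but the last.

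The share of regions with a counterpart in the other line depended on which line was asked. The number of shared regions was close in the 2 directions, so the shares differed mainly with the number of regions called in each line. On chromosome 3, 1358 of the 1851 regions of zcrest 2 shared 1 bp or more with the list of zcrest 1. This is 73.4%, with an exact binomial interval of 71.3% to 75.4% at the 95% level. In the other direction 1357 of the 2477 regions of zcrest 1 overlapped zcrest 2, or 54.8% (52.8% to 56.8%). On chromosome 12, 1180 of the 2327 regions of zcrest 2 were shared, or 50.7% (48.7% to 52.8%), and 1219 of the 1794 of zcrest 1, or 67.9% (65.7% to 70.1%). Over all numbered chromosomes the shared part was 64.9% in zcrest 2 and 54.7% in zcrest 1. Chromosome 3 thus exceeded chromosome 12 by 22.7 percentage points in zcrest 2 and lay 13.2 points below it in zcrest 1 (difference -13.2). The intervals cover counting error only and treat neighbouring regions as independent.

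Both orders were seen in the weakest and strongest regions, and in percentage points the differences were smaller among the strongest. Regions were divided into 4 classes of nearly equal size by the -log10 q of the whole list. In the weakest class of zcrest 2, 42.1% of the regions of chromosome 3 (37.2% to 47.2%) and 17.1% of those of chromosome 12 (14.3% to 20.2%) were shared. In its strongest class, 97.1% of the regions of chromosome 3 (95.1% to 98.5%) and 90.3% of those of chromosome 12 (87.6% to 92.6%) were. In the weakest class of zcrest 1, 25.9% were shared on chromosome 3 (22.2% to 29.8%) and 44.9% on chromosome 12 (40.3% to 49.6%). In the strongest class of zcrest 1 the intervals of the chromosomes overlapped, with 84.3% on chromosome 3 (81.2% to 87.2%) and 87.7% on chromosome 12 (83.9% to 90.9%). Over all numbered chromosomes the weakest and strongest classes had 34.0% and 94.0% shared in zcrest 2, and 28.8% and 82.2% in zcrest 1. In both of these classes of zcrest 1, chromosome 3 lay nearer to these shares than chromosome 12 did.

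**Figure D2:**
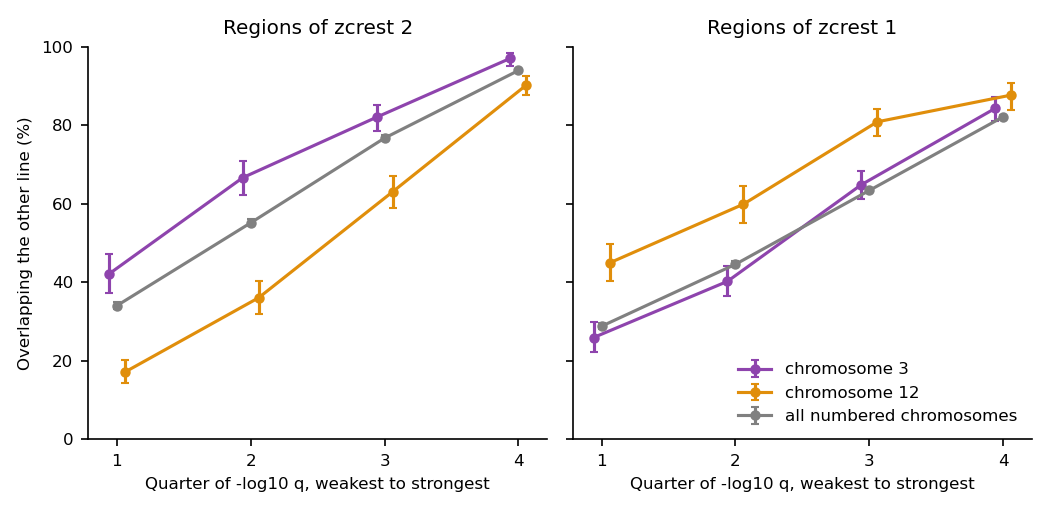
Percent of regions that overlap a region of the other line, in 4 classes of the deposited -log10 q from weakest to strongest, for regions of zcrest 2 (left) and zcrest 1 (right). Points are chromosome 3, chromosome 12 and all numbered chromosomes, and bars are exact 95% binomial intervals. In zcrest 2 chromosome 3 lies above chromosome 12 in each class, and in zcrest 1 below it, with overlapping intervals in the strongest class.

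Regions found in a single line were counted where the other list had nothing within 1 kb. On chromosome 3 there were 412 regions of zcrest 2 only, 22.3% of that line's regions (20.4% to 24.2%), and 1031 of zcrest 1 only, 41.6% (39.7% to 43.6%). On chromosome 12 there were 1051 of zcrest 2 only, 45.2% (43.1% to 47.2%), and 516 of zcrest 1 only, 28.8% (26.7% to 30.9%). The background over all numbered chromosomes was 30.8% in zcrest 2 and 41.6% in zcrest 1. The share of zcrest 1 on chromosome 3 thus equalled that background, and what set chromosome 3 apart from the list was the smaller share in zcrest 2. On chromosome 12 the share was above the background in zcrest 2 and below it in zcrest 1.

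The number of zcrest 2-only over zcrest 1-only regions was 0.3996 on chromosome 3 (exact interval 0.356 to 0.448) and 2.04 on chromosome 12 (1.83 to 2.27), against 0.62 over all numbered chromosomes. This ratio rests on how long the lists are and how weak a region may be. With both lists at the same length of 53129 regions it was 0.606 on chromosome 3 and 3.09 on chromosome 12, against 0.969 overall. Among regions whose -log10 q reached 10 it was 0.160 on chromosome 3, from 45 regions of zcrest 2 and 282 of zcrest 1, and 1.32 on chromosome 12, from 153 and 116, against 0.307 overall.

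The excess of one line ran along most of chromosome 3 and nearly all of chromosome 12. A window was counted where the single-line regions of one line were at least 1.5 times those of the other. On chromosome 3, 1 of 32 windows leaned to zcrest 2 in this way and 24 to zcrest 1. On chromosome 12, 20 of 26 windows leaned to zcrest 2 and 1 to zcrest 1. Over the genome 15.9% of the windows leaned to zcrest 2 and 53.8% to zcrest 1. Without the fold, regions of zcrest 2 only outnumbered those of zcrest 1 only in 5 windows of chromosome 3 and 25 of chromosome 12, against 29.2% of all windows. The reverse held in 27 windows of chromosome 3 and 1 of chromosome 12, against 69.7% of all windows.

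The window of chromosome 3 with most zcrest 2-only regions was the first, at 0 to 2 Mb, with 32 of zcrest 2 only and 22 of zcrest 1 only. The window with most zcrest 1-only regions, at 48 to 50 Mb between the left-out stretches, held 5 of zcrest 2 only and 81 of zcrest 1 only. At 32 to 34 Mb, 2 of the 40 regions of zcrest 2 were its own and 92.5% of them were shared, the highest share on the chromosome. The lowest share of zcrest 2 on chromosome 3 was 46.4%, at 20 to 22 Mb, the window that leaned to zcrest 2. On chromosome 12 the window at 44 to 46 Mb held most zcrest 2-only regions, 69 against 25 of zcrest 1 only. Most zcrest 1-only regions on chromosome 12, 33, were at 42 to 44 Mb, beside 48 of zcrest 2 only. The shared share of zcrest 2 on chromosome 12 ran from 41.6% at 40 to 42 Mb to 63.8% at 34 to 36 Mb. The single window of chromosome 12 that leaned to zcrest 1 was the incomplete last one, with 11 regions of zcrest 2 only and 20 of zcrest 1 only.

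**Figure D3:**
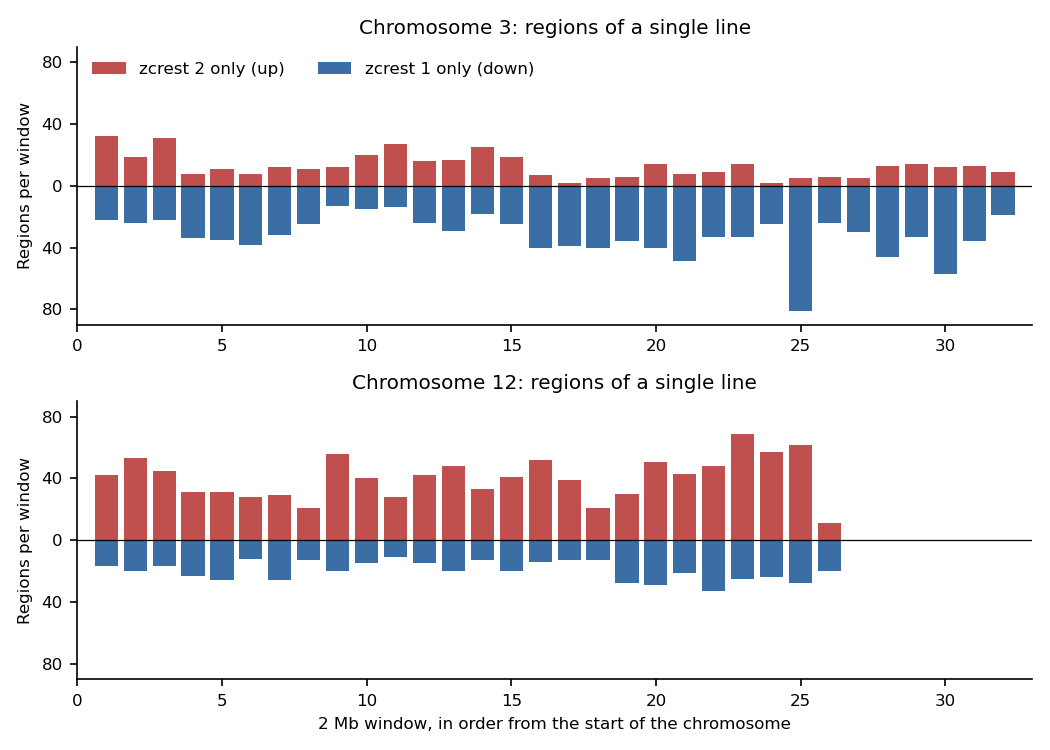
Number of regions without a region of the other line within 1 kb, in 2 Mb windows of chromosome 3 (top) and chromosome 12 (bottom) in order from the chromosome start. Bars up are zcrest 2 only and bars down zcrest 1 only. The longest downward bar, 81 regions, lies on chromosome 3, and the longest upward bar, 69 regions, on chromosome 12.

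Reads at regions that both lines possessed moved the same way. The number of overlapping reads at each summit was solved from the deposited values, and the ratio of zcrest 2 over zcrest 1 was taken at regions matched one to one, with the median of all 32455 such pairs set to 0 on the log2 scale. On chromosome 3 the median summit had 21 reads in zcrest 2 and 23 in zcrest 1. The median log2 ratio of the 1256 pairs was -0.17 (quartiles -0.59 and 0.21), a ratio of 0.890. On chromosome 12 the median summit had 29 reads in zcrest 2 and 19 in zcrest 1. Its median log2 ratio was 0.53 (quartiles 0.11 and 0.86, 1130 pairs), a ratio of 1.44. The ratio exceeded the genome median at 39.4% of the pairs of chromosome 3 (36.7% to 42.2%) and at 78.6% of those of chromosome 12 (76.1% to 80.9%). The difference in median, chromosome 3 minus chromosome 12, was -0.70 on the log2 scale. The ratio compares reads and is not a measure of openness alone, and the cause of its difference between the chromosomes was not tested. Even where openness differs, these bulk libraries cannot tell a region open in fewer cells from a region less open in each cell.

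On chromosome 12 the shift was spread over many pairs rather than carried by a few. A log2 ratio of at least 1 was reached by 38 pairs of chromosome 3 (3.03%) and 204 of chromosome 12 (18.1%), against 6.31% of all pairs. A log2 ratio of -1 or less was reached by 123 pairs of chromosome 3 (9.79%) and 24 of chromosome 12 (2.12%), against 10.1% of all pairs. Chromosome 3 thus had fewer pairs at 1 or more, while its share at -1 or less was near that of all pairs. In 3 classes by the summed summit reads of a pair, from fewest to most, the median log2 ratio on chromosome 3 was -0.08, -0.14 and -0.28. On chromosome 12 it was 0.38, 0.59 and 0.57. The sign was the same in each class of either chromosome.

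In the medians of the 2 chromosomes the local background moved with the reads. It is the peak caller's estimate over 10000 bp around the region, never below the genome-wide level, and it counts the region's own reads. At the pairs of chromosome 3 zcrest 2 had a median of 2.22 reads and zcrest 1 of 2.18. Relative to the genome this was a log2 ratio of -0.13. At the pairs of chromosome 12 the medians were 3.77 reads for zcrest 2 and 1.88 for zcrest 1, and the log2 ratio was 0.53. Fold enrichment, which divides the reads by that background, shifted far less. With fold enrichment in place of reads the log2 ratio was -0.021 on chromosome 3 and 0.060 on chromosome 12, a difference of -0.081. Within chromosome 3 the ratios of reads and background were close in some stretches, and in others the background could not be read. From 32 Mb to the end the log2 ratios were -0.35 for reads and -0.33 for background. From 16 to 32 Mb they were 0.09 and 1.3e-06. In that stretch, at 20 to 24 Mb, the median background of the regions was the lowest allowed in both lines, 2.01 reads in zcrest 2 and 1.57 in zcrest 1. The background ratio there cannot show whether reads and background parted. The genome-wide level limits the background ratio, and 42.8% of the zcrest 2 regions of chromosome 3 sat at that level. The part of the background in the difference of reads was not tested.

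Chromosome 3 was made of stretches of opposite sign. Of its 32 windows 12 lay above 0 and 20 below, where 48.5% of all windows were below 0. None reached 0.5, against 8.04% of all windows, and 3 were at or under -0.5, against 11.4%. The first 3 windows, from 0 to 6 Mb, had medians of 0.19 to 0.24 and together a median of 0.22 (quartiles -0.12 and 0.58, 124 pairs). Those from 6 to 12 Mb had medians of -0.43 to -0.21. At 12 to 14 Mb the median was 0.03 and at 14 to 16 Mb -0.21. The 8 windows from 16 to 32 Mb were all above 0, from 0.01 to 0.36, with a median of 0.09 (quartiles -0.21 and 0.44, 285 pairs). Of these, the windows at 26 to 28 Mb and 28 to 30 Mb were barely above 0, with 53.3% and 50% of their pairs above it. The 16 windows from 32 Mb to the end were all below 0, from -1.20 to -0.08, with a median of -0.35 (quartiles -0.76 and 0.01, 629 pairs). The borders were read off the values, so the contrast between stretches is a description. Windows of both signs were not particular to chromosome 3. Chromosome 7 had 16 windows above 0 and 22 below, and chromosome 20 had 15 and 13. Only chromosomes 12 and 23 had windows of a single sign.

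Along chromosome 12 the read ratio varied little. All 26 windows lay above 0, against 352 of 684 over all numbered chromosomes, and 18 of them reached a log2 ratio of 0.5, against 8.04%. No window of chromosome 12 was at or under -0.5, against 11.4%. A nearly uniform sign was also found elsewhere. On chromosomes 13 and 18, 26 of 27 and 24 of 25 windows lay above 0, and on chromosome 23 all 24 lay below. On chromosome 12 itself the window medians spanned a narrow range. The lowest median was 0.21 at 34 to 36 Mb (quartiles -0.08 and 0.57, 42 pairs). The highest was 0.82 at 14 to 16 Mb (quartiles 0.44 and 1.09, 28 pairs), a window from which the left-out stretch was removed. The SD of the window medians was 0.342 on chromosome 3 and 0.142 on chromosome 12. Within single chromosomes it ran from this 0.142 up to 0.490 on chromosome 7. Chromosomes 10 and 23 were close to chromosome 12, with 0.149 and 0.157. The SD over all windows, 0.395, also holds the differences between chromosomes.

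The calls followed these stretches in part. From 0 to 6 Mb of chromosome 3, 82 regions were of zcrest 2 only and 68 of zcrest 1 only, a ratio of 1.21. From 16 to 32 Mb zcrest 2 had 143 and zcrest 1 had 178, a ratio of 0.803, and from 32 Mb to the end zcrest 2 had 137 and zcrest 1 had 621, a ratio of 0.221. Those from 6 to 12 Mb and 14 to 16 Mb, below 0 in reads, had ratios of 0.252 and 0.440. The window at 12 to 14 Mb, above 0 in reads, had 12 regions of zcrest 2 only and 32 of zcrest 1 only, a ratio of 0.375. Over all numbered chromosomes the ratio was 0.62. The stretches at 0 to 6 Mb and 16 to 32 Mb lay above it and the others below. Within 16 to 32 Mb the windows starting at 22, 24 and 30 Mb leaned to zcrest 1, the last with 7 of zcrest 2 only and 40 of zcrest 1 only. The window starting at 22 Mb held 16 of zcrest 2 only and 24 of zcrest 1 only. That starting at 24 Mb held 17 and 29. Both were near the ratio over all numbered chromosomes. From 32 Mb to the end zcrest 2 had 28.9 regions per Mb and zcrest 1 had 45.7 per Mb, and 80.3% of the regions of zcrest 2 (77.4% to 82.9%) but 50.1% of those of zcrest 1 (47.4% to 52.8%) were shared. Between 16 and 32 Mb the densities were close, 29.6 per Mb in zcrest 2 and 31.4 in zcrest 1. In that stretch 64.5% of the regions of zcrest 2 (59.98% to 68.8%) and 61.6% of those of zcrest 1 (57.2% to 65.9%) were shared, with overlapping intervals. Over all numbered chromosomes 64.9% were shared in zcrest 2 and 54.7% in zcrest 1.

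The 3 lowest windows of chromosome 3 were those at 50 to 52 Mb (-1.20, quartiles -1.63 and -0.41, 15 pairs), 48 to 50 Mb (-0.87, quartiles -1.30 and -0.33, 40 pairs) and 54 to 56 Mb (-0.67, quartiles -1.05 and -0.37, 39 pairs). The first of these lost its middle to the rule and the second lies between the left-out stretches. At 48 to 50 Mb the median background of the regions was 2.04 reads in zcrest 2 and 3.79 in zcrest 1. Without 46 to 52 Mb the log2 read ratio of chromosome 3 was -0.15 and the ratio of zcrest 2-only over zcrest 1-only regions was 0.443, close to the values with these windows. Across the windows the read ratio and the share of single-line regions that came from zcrest 2 went together. The Spearman rho was 0.75 over the 32 windows of chromosome 3 and 0.50 over the 26 of chromosome 12. It was higher, 0.89, over the 683 windows of all numbered chromosomes that had both measures. Both measures come from the same reads and a region with fewer reads is called less often, so this is a description.

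**Figure D4:**
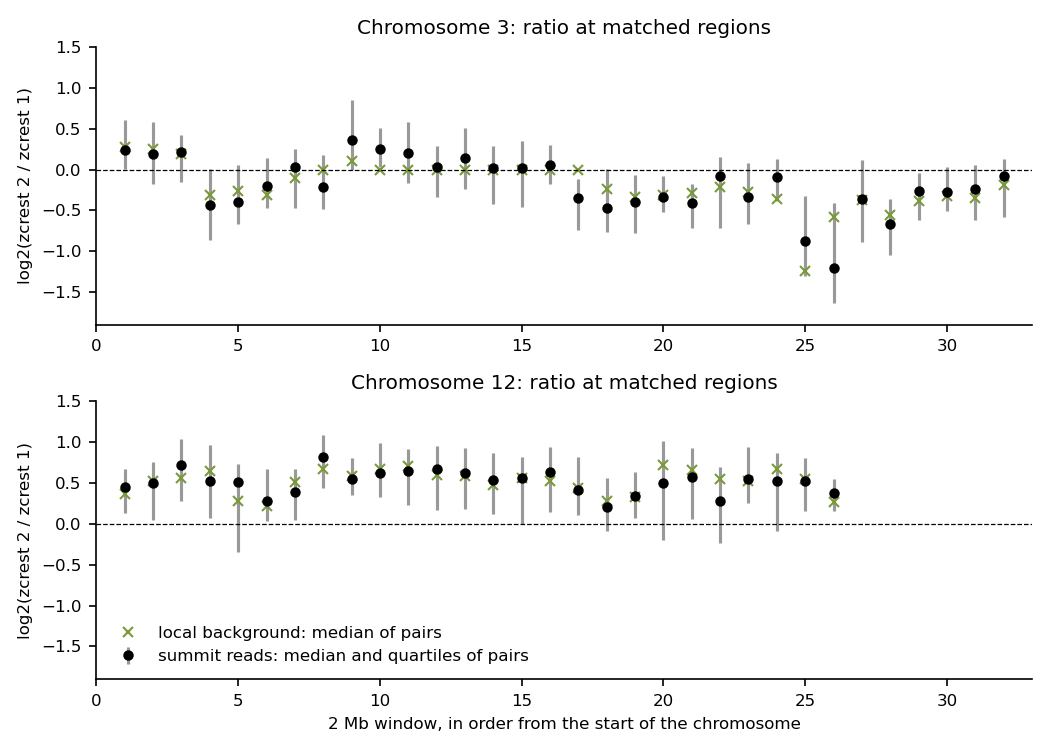
Median log2 ratio of summit reads, zcrest 2 over zcrest 1, at matched regions in 2 Mb windows of chromosome 3 (top) and chromosome 12 (bottom), with the median of all pairs set to 0. Bars span the quartiles of the pairs and crosses are the same ratio for the local background. The windows of chromosome 3 lie between -1.20 and 0.36, and those of chromosome 12 between 0.21 and 0.82.

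Set against the other 23 numbered chromosomes, chromosome 3 was within the range and chromosome 12 outside it in the measures that follow, except the shared share of zcrest 2. The median log2 read ratio of the others ran from -0.55 on chromosome 16 to 0.36 on chromosome 18. The ratio of zcrest 2-only over zcrest 1-only regions ran from 0.133 on chromosome 16 to 1.497 on chromosome 18. Chromosome 3, at -0.17 and 0.3996, was 19th and 20th from the top. Chromosome 12, at 0.53 and 2.04, was first in both orders. The share of zcrest 1 regions that were shared was also highest on chromosome 12, where the others ran from 39.8% to 66.2%. The share of zcrest 2 regions that were shared on chromosome 12 was second from the bottom, above chromosome 4 with 46.7%. These are orders of 25 values from 1 pair of libraries, with no test, and the measures come from the same lists and are not separate measurements.

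**Figure D5:**
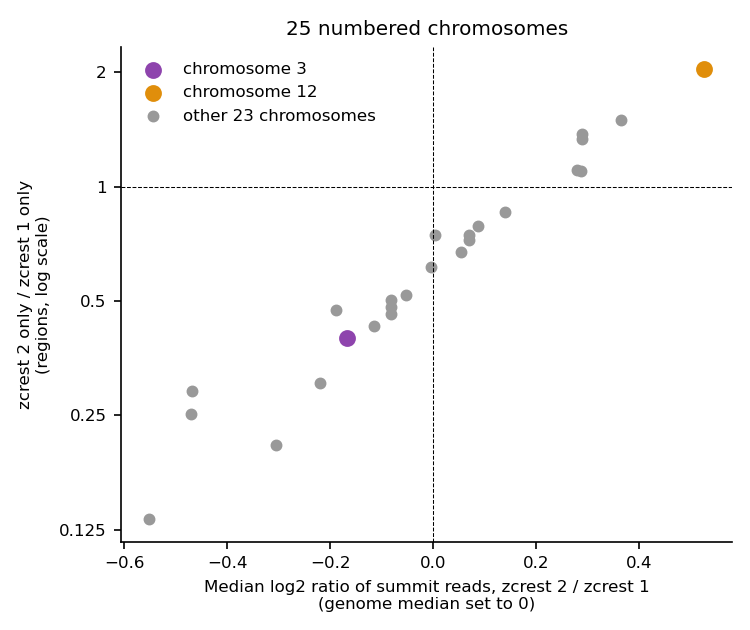
Each point is 1 of the 25 numbered chromosomes. The x axis is the median log2 ratio of summit reads at matched regions, zcrest 2 over zcrest 1, and the y axis (log scale) is the number of zcrest 2-only over zcrest 1-only regions. Chromosome 3 lies among the other 23 in the lower left, and chromosome 12 is the point farthest to the upper right.

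Median widths on chromosome 3 were 383 bp in zcrest 2 and 400 bp in zcrest 1. On chromosome 12 they were 384 bp in zcrest 2 and 381 bp in zcrest 1. On chromosome 3 the -log10 q was 10 or more in 42.4% of zcrest 2 regions and 48.1% of zcrest 1 regions. On chromosome 12 this held for 40.3% in zcrest 2 and 44.8% in zcrest 1. Over all numbered chromosomes the shares were near these, 40.9% in zcrest 2 and 45.8% in zcrest 1. The median fold enrichment was 5.59 in zcrest 2 and 6.07 in zcrest 1 on chromosome 3. On chromosome 12 it was 4.82 in zcrest 2 and 5.84 in zcrest 1. The share of regions that sat at the genome-wide background was 42.8% in zcrest 2 and 32.9% in zcrest 1 on chromosome 3. On chromosome 12 it was 9.76% in zcrest 2 and 36.6% in zcrest 1. Over all numbered chromosomes it was 19.8% in zcrest 2 and 22.3% in zcrest 1.

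On chromosome 3, 43.5% of the matched regions were wider in zcrest 2, and the median widths were 437 bp in zcrest 2 and 482 bp in zcrest 1. On chromosome 12, 66.5% were wider in zcrest 2, and the median widths were 498 bp in zcrest 2 and 428 bp in zcrest 1. Of all pairs 48.7% were wider in zcrest 2, with median widths of 458 bp in zcrest 2 and 471 bp in zcrest 1. Width and reads come from the same signal and are not separate measurements. The positions of the summits carried no such shift. The median distance between the summits of a pair was 31 bp on either chromosome. Summits lay within 100 bp in 78.5% of the pairs of chromosome 3 and 78.8% of those of chromosome 12, against 77.1% of all pairs. The median gap to the next region of the same line was 16.7 kb in zcrest 2 and 13.1 kb in zcrest 1 on chromosome 3, and 13.5 kb in zcrest 2 and 17.1 kb in zcrest 1 on chromosome 12.

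Regions of a single line were weaker and narrower than shared ones on both chromosomes. In zcrest 2 the regions of that line only stood on a median of 14 reads on chromosome 3 and 15 on chromosome 12, where shared regions had 21 and 30. In zcrest 1 they stood on 14 and 13 reads, where shared regions had 23 and 19. In zcrest 2 the shared regions had more reads on chromosome 12 than on chromosome 3, and in zcrest 1 fewer, while the medians of single-line regions lay within 1 read of each other. Over all numbered chromosomes single-line regions also had a median of 14 reads in either line, and shared regions 24, so weak single-line regions were not particular to these chromosomes. The nearest region of the other line was a median of 9.87 kb from a zcrest 2-only region and 13.8 kb from a zcrest 1-only region on chromosome 3. On chromosome 12 these distances were 12.01 kb for zcrest 2 and 9.11 kb for zcrest 1.

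The strongest region of each chromosome was the same in both lines. On chromosome 3 it was chr3:9076024-9076592 in zcrest 2, with 103 reads at the summit and a 19.5-fold enrichment, and chr3:9075975-9076565 in zcrest 1, with 90 reads and an 18.2-fold enrichment. On chromosome 12 it was chr12:45315092-45315750 in zcrest 2, with 130 reads and an 18.4-fold enrichment, and chr12:45315140-45315748 in zcrest 1, with 86 reads and a 15.76-fold enrichment. It ranked 12 in the list of zcrest 2 and 282 in that of zcrest 1. The region of chromosome 3 ranked 38 in zcrest 2 and 136 in zcrest 1.

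The next strongest regions of chromosome 3 lay apart in the lines. In zcrest 2 they were chr3:2528155-2529062 and chr3:2564173-2564899, with 101 and 99 reads where the counterparts in zcrest 1 had 70 and 62. Both fall in the first stretch of windows above 0. In zcrest 1 they were chr3:50344272-50346074 and chr3:50297635-50298507, with 136 and 111 reads where the counterparts in zcrest 2 had 36 and 43. Both lie shortly before a stretch that the rule leaves out, and their background was 6.24 and 3.88 times the median of zcrest 1. On chromosome 12 the next strongest were chr12:12698859-12700151 and chr12:25038323-25038935 in zcrest 2, with 129 and 113 reads where zcrest 1 had 81 and 59. In zcrest 1 they were chr12:17523302-17524118 and chr12:38900130-38900697, with 84 and 79 reads where zcrest 2 had 101 and 62.

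The single-line regions of highest -log10 q are given for each line apart, beginning with zcrest 1 on chromosome 3. Its first was chr3:48450029-48451683, with 142 reads, a 7.04-fold enrichment and a background 8.63 times the median of the line. There zcrest 2 had no region nearer than 58.7 kb. The next, chr3:29903173-29903824 and chr3:41022390-41022914, had 65 and 58 reads, enrichments of 15.6-fold and 15.9-fold, and backgrounds 1.44 and 1.21 times the median. Those of zcrest 2 on chromosome 3 were chr3:16178602-16179054, chr3:22031179-22031849 and chr3:21072918-21073458, with 44, 41 and 35 reads. Their enrichments were 13.2-fold, 10.3-fold and 11.9-fold. All 3 fell between 16 and 32 Mb, in the stretch of windows above 0.

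On chromosome 12 the strongest region of zcrest 2 only was chr12:43764896-43765940, with 83 reads and a 10.8-fold enrichment, 1.80 kb from the nearest region of zcrest 1. It was followed by chr12:19343009-19343742 and chr12:30274325-30275136, with 51 and 54 reads. Those of zcrest 1 only were chr12:22505689-22506248, chr12:6537023-6537574 and chr12:40191715-40192507, with 58, 52 and 46 reads and enrichments of 15.4-fold, 16.0-fold and 12.2-fold. Strong regions of zcrest 1 alone were thus present on chromosome 12 too. A missing region in the other list does not show closed chromatin there, because reads outside called regions were not analysed here.

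Single pairs departed from their chromosome in either direction, and their positions are given as called in zcrest 2. Among the pairs with at least 60 summit reads in total, 394 on chromosome 3 and 403 on chromosome 12, the highest ratio was on chromosome 12 at chr12:46064455-46065129, with 69 reads in zcrest 2 and 9 in zcrest 1. That is a ratio of 7.24 relative to the genome (exact interval for counting error 3.60 to 16.5), beside a background ratio of 2.51. The second, chr12:30466453-30467084, had 77 reads in zcrest 2 against 13 in zcrest 1, for a ratio of 5.59 (3.09 to 11.0). The lowest on chromosome 12 was chr12:49410968-49411252, with 15 reads in zcrest 2 against 51 in zcrest 1, for a ratio of 0.278 (0.145 to 0.502). Its background ratio was 0.985. The next lowest, chr12:48560837-48561341, had 28 reads in zcrest 2 against 73 in zcrest 1, for a ratio of 0.362 (0.226 to 0.567).

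On chromosome 3 the highest ratio was at chr3:29545611-29546373, with 48 reads in zcrest 2 against 14 in zcrest 1, for a ratio of 3.24 (1.76 to 6.36). The second, chr3:16169058-16170371, had 66 reads in zcrest 2 against 22 in zcrest 1, for a ratio of 2.83 (1.73 to 4.82) and lay shortly before the strongest region of zcrest 2 only. The lowest was chr3:49415627-49416009, with 19 reads in zcrest 2 against 93 in zcrest 1, for a ratio of 0.193 (0.111 to 0.318) beside a background ratio of 0.175. The next, chr3:26120388-26120641, had 12 reads in zcrest 2 against 55 in zcrest 1, for a ratio of 0.206 (0.100 to 0.389), inside a stretch whose windows were above 0. These 8 pairs are the extremes of their chromosomes, so their ratios are given without a test.

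Regions of a line that followed each other closely were joined into groups. The longest gap inside the 8 groups named here was 12.2 kb, just under the distance at which joining stopped. The largest of zcrest 2 were chr3:62897216-63000260 with 14 regions, 12 of them shared, and chr12:29079044-29161244 with 16 regions, 10 of them shared. The second largest of zcrest 2 held 10 regions on chromosome 3, at chr3:60464819-60523942, and 14 on chromosome 12, at chr12:43401509-43478735. The largest of zcrest 1 were chr3:40523170-40586360 with 14 regions, 5 of them shared and 9 of zcrest 1 only, and chr12:5161962-5202682 with 11 regions, 8 of them shared. The second largest of zcrest 1 held 13 regions at chr3:46945822-46991965 and 9 at chr12:9402837-9452497. The former stood at 4.67 times the median background of the line and lay next to a left-out stretch. Regions of that stretch were not joined, so the end and the count of this group may be set by the rule.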

How the data were processed

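One peak list per library was used, 53132 regions for zcrest 2 and 63335 for zcrest 1. Peaks were called with MACS2 2.1.0 on Zv9, per the submitters' processing notes, and the peak names show that each library was called on its own. The aligner, duplicate handling and transposase shift were not given in the sources used here. Every list as deposited gives a score, which is 10 times the -log10 q without decimals in all regions of zcrest 2 and all but 1 of zcrest 1, a fold enrichment (a ratio, summit pileup over background after adding 1 to both), a -log10 p and a -log10 q. These values are the authors' own and rank regions only within a list. Summit offsets in the deposited lists count from 0, and positions are given here from 1.

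Pileup and background were solved from the deposited fold enrichment and -log10 p by trying whole pileups up to 800. All regions (100%) had a pileup that gave the -log10 p to within 0.001. Backgrounds above the genome-wide value were whole steps of a 200 bp read spread over 10000 bp, with 0 exceptions in either list. Depth is known only through that value, since total reads were not analysed here, and the intervals cover counting error only.

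Shared regions overlap by at least 1 bp, and regions of a single line have none of the other list within 1 kb. Windows of 2 Mb needed at least 10 pairs for a read ratio and at least 10 single-line regions for a lean. Named regions follow 1 rule: per chromosome and line the 3 of highest -log10 q, the 3 highest of a single line and the 2 largest groups, per chromosome the 2 highest and 2 lowest pairs, and the extreme windows. The members, lists and rules were chosen with earlier results of these data known. With 1 library per line no test was run. Scripts (Python 3.11.15, scipy 1.17.1) were tested on simulated data. Alternatives covered the overlap rule, the distance, the score, list length, the read measure, window size and the left-out stretches.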

Additional observations from a re-analysis of the deposited data

How the results depend on the processing

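Of 127 values computed under an alternative, 70 stayed within their interval or within 1.5 times a count and 57 moved further. A change of direction was possible only for the single-line ratios, the read ratios and the differences between the chromosomes, and 0 of these changed. The other values, such as counts and shares, have no sign to change. At a -log10 q of 10 or more, chromosome 3 kept 785 regions in zcrest 2 and 1191 in zcrest 1, and chromosome 12 kept 938 in zcrest 2 and 804 in zcrest 1. Shared shares (chromosome 3 in zcrest 2 and zcrest 1, then chromosome 12 in zcrest 2 and zcrest 1) were 61.2%, 45.7%, 43.1% and 56.0% with a reciprocal overlap of 50%. They were 56.1%, 41.9%, 39.9% and 51.8% with summits within 100 bp, and 69.3%, 59.3%, 45.8% and 72.3% with lists of equal length. With both lists at a -log10 q of 10 or more they were 79.1%, 52.3% and 59.1%, without the last, which moved less. The difference between chromosomes 3 and 12 was 18.0 points in zcrest 2 with reciprocal overlap, 16.2 in zcrest 2 and -9.84 in zcrest 1 with summits, and -17.6 in zcrest 1 with both lists filtered. Single-line shares in the same order were 26.6%, 45.2%, 49.3% and 32.1% without a distance, 16.7%, 33.2%, 36.8% and 19.2% at 5 kb, 26.4%, 37.6%, 50.45% and 25.03% with equal lists, and 5.73%, 23.7%, 16.3% and 14.4% for strong regions. Their ratio was 0.606 and 3.09 with equal lists and 0.160 and 1.32 for strong regions, on chromosomes 3 and 12, and 2.48 on chromosome 12 at 5 kb. With the left-out stretches included, chromosome 3 in zcrest 1 had 51.1% shared, 45.5% of a single line, a ratio of 0.340, a difference from chromosome 12 of -16.9 points and a median fold enrichment of 5.83. The log2 read ratio was -0.021 on chromosome 3 and 0.060 on chromosome 12 (difference -0.081) by fold enrichment, and -0.27 and 0.63 (difference -0.90) for pairs of at least 60 reads. In windows of 5 Mb, 0% of those of chromosome 3 leaned to zcrest 2, and with windows shifted by 1 Mb, 0% of those of chromosome 12 leaned to zcrest 1. The values without 46 to 52 Mb of chromosome 3 were chosen after seeing the data. The cause of these movements was not tested. No paired analysis was possible because each line has 1 library. Weak regions depend on the background of each library, and 1 library per line gives no spread between cultures.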

Other observations

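The stretches left out of the account above held 78 regions of zcrest 2 and 272 of zcrest 1. Those of chromosome 3 held 41 regions of zcrest 2 and 242 of zcrest 1 in 2 Mb, or 20.5 per Mb against 121 per Mb, and 206 of the 242 were of zcrest 1 only. At their 31 matched pairs the median summit had 19 reads in zcrest 2 and 78 in zcrest 1, a log2 ratio of -2.04 beside a background log2 ratio of -2.55. The stretch of chromosome 12 held 37 regions of zcrest 2 and 30 of zcrest 1 in 0.5 Mb. Its 21 pairs had a median of 55 reads in zcrest 2 and 35 in zcrest 1, a log2 ratio of 0.61 that lies within the range of the windows of chromosome 12.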
